A study of Mus musculus with 3 samples.

Results

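The genes described here are 8 genes of sterol metabolism among the 39179 genes of the count table, chosen by name: Mvk, Pmvk, Fdft1 and Lss of sterol synthesis, the sterol sensor Insig1, the cholesterol exporters Abca1 and Abcg1, and the plasma enzyme Lcat. Each has 1 row in the table, and all 8 passed the filter on low counts. Of these, 5 reached the filter's minimum in the IgG library. Pmvk passed it only through both Flag libraries, and Insig1 and Lcat only through 1 Flag library each. The data are RNA immunoprecipitations from white fat of C57BL/6 mice, 16 weeks old, that carried a Flag-FTO transgene and had gone without food overnight. An anti-Flag M2 antibody was used for 2 libraries (Flag-IP 1 and Flag-IP 2) and nonspecific IgG for 1 library (IgG-IP). The control too comes from transgenic mice, and the antibody is the only difference that the labels name. The promoter that drives the transgene is not given in the sources used here, nor is the number of animals behind a library, and the spread between the Flag-IP libraries may therefore be technical. Counts are given below in the order Flag-IP 1, Flag-IP 2, IgG-IP.

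Cholesterol is built from acetyl-CoA through mevalonate, which kinases phosphorylate before it is turned into isoprenoid units, and these are joined into squalene, closed into lanosterol and trimmed to cholesterol. When sterols are plentiful, Insig proteins hold the SREBP transcription factors in the endoplasmic reticulum and synthesis falls. Excess cholesterol leaves cells through ABC transporters, whose genes are driven by the oxysterol-sensing LXR receptors, and is esterified in plasma on high-density lipoprotein. White fat stores much of the body's free cholesterol. FTO, the tagged protein, is a demethylase whose substrates include N6-methyladenosine in RNA, a mark that is known to lie most often at a GGAC core. The immunoprecipitation asked which transcripts came down with the tagged protein above the IgG background.

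The libraries held between 74176962 and 98227791 counts, but the median tested gene had only 24 to 26, and 8136 genes had 0 counts in all libraries. Of 12 markers of white adipocytes all 12 were detected, with summed normalized counts of 513 and 440 in Flag-IP 1 and Flag-IP 2 and 513 in IgG-IP, although Adipoq, the adipocyte hormone adiponectin, had only 18, 14 and 3 counts. Of the 11 tested, 1 was higher in Flag-IP (the lipid droplet gene Plin1, 34, 59 and 12 counts, log2 fold change 2.06, edgeR adjusted p = 0.00185) and 1 was lower (Cd36, -0.89, adjusted p = 0.0183). A normalized count is a count scaled to a common effective library size. All 10 macrophage markers were detected too, with sums of 479, 438 and 684, and 1 of them, the leukocyte phosphatase Ptprc, was lower in Flag-IP. Lyz2 and Cd14 of that list had 0 counts in both Flag-IP libraries. All 6 endothelial markers were detected (506, 561 and 505). The 8 hepatocyte markers summed to 57.1, 95.1 and 81.0, with the albumin gene Alb at 8, 13 and 19 counts. Normalized counts followed gene span over protein-coding genes (Spearman's rho 0.85, 0.86 and 0.89, given below). Detection and these sums, which are not scaled to span, are therefore no measure of the amount of each cell type. The part of these cell types in the values below was not tested, and in tissue lysates more cells of a type and more RNA per cell cannot be told apart.

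To show what the annotated transcripts look like around that core, a stretch of coding sequence is printed for 5 genes. It is the first with GGACT (in capitals) near its middle and inside a single exon, and only these 5 genes have one. Each is the sense strand of the longest coding transcript in GENCODE M21 (GRCm38).
Mvk, chr5:114458958-114459017, + strand: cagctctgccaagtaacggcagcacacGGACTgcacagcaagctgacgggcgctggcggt
Lss, chr10:76531915-76531974, + strand: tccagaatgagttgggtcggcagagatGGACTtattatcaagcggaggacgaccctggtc
Abca1, chr4:53086097-53086156, - strand: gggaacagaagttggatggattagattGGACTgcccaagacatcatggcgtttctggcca
Abcg1, chr17:31105536-31105595, + strand: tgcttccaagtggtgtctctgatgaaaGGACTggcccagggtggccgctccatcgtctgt
Lcat, chr8:105942373-105942432, - strand: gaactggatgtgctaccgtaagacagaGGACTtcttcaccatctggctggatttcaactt
The stretches differ in base composition, from 46.7% G and C in Lcat to 65.0% in Mvk. GGACT occurred 11 times in the transcript of Lss, 7 times in Abca1, 6 times each in Fdft1 and Abcg1, 3 times in Insig1, 2 times each in Pmvk and Lcat and once in Mvk. Per kilobase that was 0.602 (Mvk) to 2.36 (Lss), against a median of 1.04 over 14920 tested protein-coding genes, of which 92.6% held the motif at least once. Of all consecutive stretches of 60 bases in the longest coding transcripts of 21226 protein-coding genes, tested or not, 5.84% held it. These matches are letters in a reference sequence and not measured methylation sites.

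Of the 8 genes, Abcg1 was higher in Flag-IP and none was lower in the edgeR quasi-likelihood fit (Benjamini-Hochberg adjusted p under 0.05), over a background of 5.58% of all 17587 tested genes called higher and 5.77% called lower. Mvk, Pmvk, Lss, Abca1, Abcg1 and Lcat had more normalized counts in both Flag-IP libraries than in IgG-IP, a pattern that 40.5% of all tested genes shared. Fdft1 had fewer in both, as did 39.0% of tested genes. Insig1 lay on either side of IgG-IP. The median log2 fold change of the 8 genes was 1.15, and 0.03 over all tested genes. It does not change with Lcat, which had 0 counts in IgG-IP, set at its lower bound. The authors' deposited list of lipid genes holds 5 of the 8 genes, and no ratio of Flag to IgG counts on it is below 1.75. Pmvk, Insig1 and Lcat passed the filter on low counts only through Flag libraries, which by itself favours values above 0. For both reasons the median of the 8 genes is not independent evidence of a direction. The same holds for the genes above IgG-IP in both Flag-IP libraries.

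**Figure D1:**
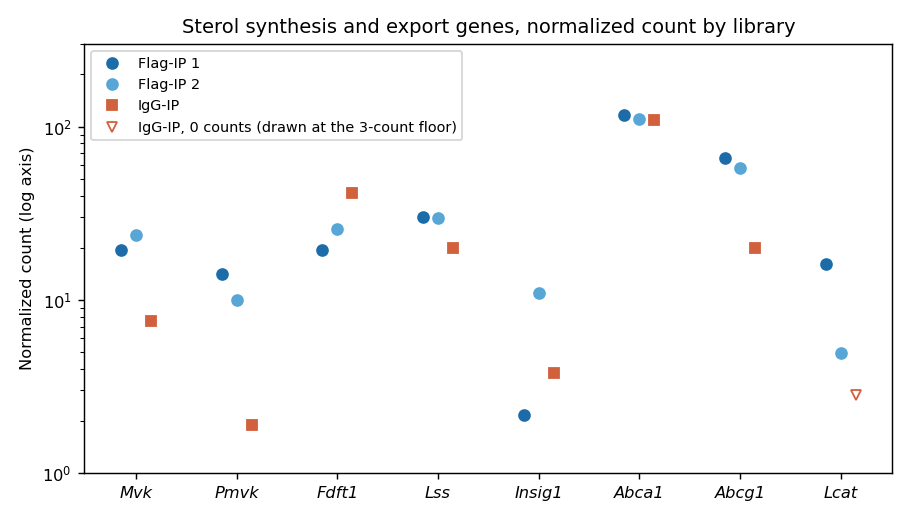
Normalized count (log axis) of each gene, 1 point per library. Abcg1 stands at 65.7 and 57.4 in the Flag-IP libraries against 19.8 in IgG-IP, Fdft1 lies lower in Flag-IP, and Abca1 is nearly level. Lcat had 0 counts in IgG-IP and is drawn there at the 3-count floor.

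In the mevalonate branch, Mvk and Pmvk encode the kinases that phosphorylate mevalonate in turn. Mvk (chromosome 5, 114444269 to 114460591, GRCm38) had 18, 24 and 8 counts, or 19.4, 23.8 and 7.54 normalized counts. Both Flag-IP libraries were above IgG-IP, with a log2 fold change of 1.50 ± 0.72 (SE) that did not pass the edgeR test (adjusted p = 0.168). Pmvk (chromosome 3, 89454541 to 89469013) had 13, 10 and 2 counts. Its ratio of Flag-IP to IgG-IP was 6.30, with a 95% interval for counting error of 1.56 to 55.1, and its edgeR adjusted p was 0.226. The breadth of that interval comes from the 2 counts in IgG-IP.

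At the branch point to sterols, Fdft1 encodes squalene synthase, and Lss encodes the cyclase that makes lanosterol. Fdft1 (chromosome 14, 63145150 to 63179578) had 18, 26 and 44 counts, or 19.4, 25.7 and 41.4 normalized counts. It was the only gene of the 8 with both Flag-IP libraries below IgG-IP, at a log2 fold change of -0.87 ± 0.46 (SE), which did not pass the edgeR test (adjusted p = 0.224). With scaling to total counts it did (log2 fold change -1.38, adjusted p = 0.0266). Fdft1 shares 774 exonic bases with Ctsb, a lysosomal protease gene on the opposite strand. Ctsb had 20, 31 and 9 counts, with more in Flag-IP where Fdft1 had fewer, and since strand use in counting is unknown their shared reads cannot be told apart. Lss (chromosome 10, 76531588 to 76557138) had 28, 30 and 21 counts. The Flag-IP libraries were close to each other, at 30.2 and 29.7 normalized counts against 19.8 in IgG-IP, and the log2 fold change was 0.59 ± 0.52 (SE; edgeR adjusted p = 0.515). An antisense gene, 4930483K19Rik, covers 11268 bases of the Lss span but only 381 of its exonic bases. It had 15, 9 and 19 counts.

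Insig1, which retains the SREBP-Scap complex in the endoplasmic reticulum, divided the Flag-IP libraries. It lies on chromosome 5, 28071363 to 28078662, and had 2, 11 and 4 counts. Flag-IP 1 was below IgG-IP and Flag-IP 2 above it, so the log2 fold change was 0.79 ± 1.54 (SE; edgeR adjusted p = 0.802) over both, -0.77 without Flag-IP 2 and 1.50 without Flag-IP 1. No difference was detectable at this depth.

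The exporters Abca1, which loads cholesterol onto lipid-poor apolipoprotein, and Abcg1, which loads it onto formed high-density lipoprotein, gave unlike values. Abca1 (chromosome 4, 53030787 to 53159895) had 108, 111 and 116 counts, the highest of the 8 genes. Its normalized counts of 116, 110 and 109 were nearly level, with a log2 fold change of 0.05 ± 0.27 (SE; edgeR adjusted p = 0.937). The ratio of 1.03 had a 95% counting interval of 0.822 to 1.31. Its sign changed with total-count scaling (-0.47 on the log2 scale) and without the filter on low counts.

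Abcg1 (chromosome 17, 31057675 to 31117988) had 61, 58 and 21 counts. Its normalized counts were 65.7 and 57.4 in Flag-IP (mean 61.6 ± 5.84, SD, n = 2) and 19.8 in IgG-IP, whose own spread is unknown with 1 library. Its log2 fold change of 1.63 ± 0.43 (SE) passed the edgeR test (adjusted p = 0.00339), and the counting interval of the ratio of 3.10 ran from 1.94 to 5.20. Each Flag-IP library alone gave a like value, 1.73 with Flag-IP 1 and 1.53 with Flag-IP 2. The call was lost with scaling to total counts (log2 fold change 1.11, adjusted p = 0.0791), and DESeq2 gave no adjusted p for any of the 8 genes (its unadjusted p for Abcg1 was 0.0273). The ribosomal RNA class gene Gm25447 inside Abcg1 had 0 counts in all libraries. The difference between the log2 fold changes of Abcg1 and Abca1 was not tested.

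Lcat esterifies cholesterol on plasma lipoproteins and is known mainly as a product of the liver. It is the shortest of the 8 genes (chromosome 8, 105939551 to 105943382) and had 15, 5 and 0 counts. Taking 3 counts as the floor of that IgG-IP value, the lower bound was 5.72-fold higher in Flag-IP 1 and 1.75-fold higher in Flag-IP 2. These bounds take the 15 and 5 counts in Flag-IP as exact. Lcat did not pass the edgeR test (adjusted p = 0.0877). Without the filter on low counts it passed (adjusted p = 0.0434). The whole of Lcat lies inside Gm16156, an antisense gene with which it shares no exonic base. Gm16156 had 30, 24 and 4 counts and was called higher itself (log2 fold change 2.85 ± 0.76, SE; edgeR adjusted p = 0.00464). With counting by span or without strand, reads of Lcat and Gm16156 cannot be told apart.

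**Figure D2:**
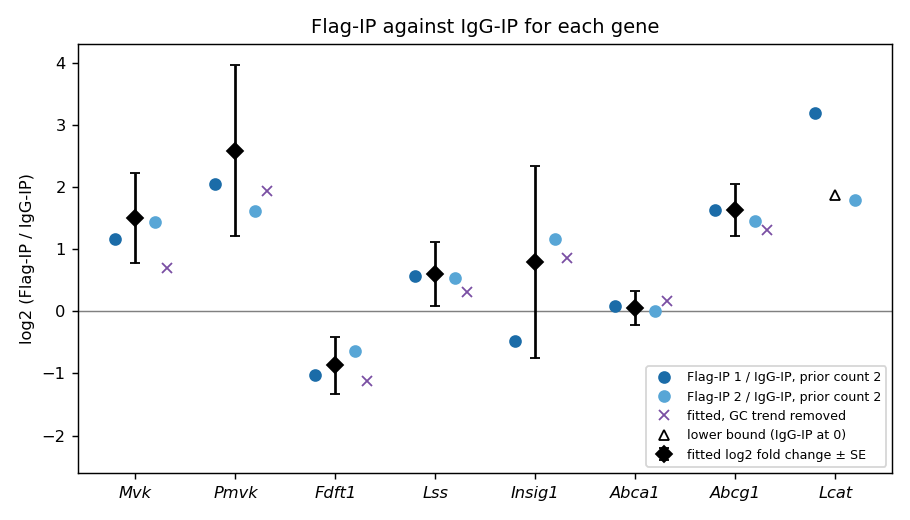
Log2 ratio of Flag-IP to IgG-IP for each gene: circles are the ratio of each Flag-IP library (prior count 2), diamonds the fitted log2 fold change with its SE, crosses the fitted value with a trend on transcript GC removed, and the open triangle the lower bound for Lcat. Abcg1 has the smallest SE relative to its size, and the Flag-IP libraries fall on opposite sides of 0 for Insig1.

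Mvk, Pmvk, Insig1, Abcg1 and Lcat stand on the authors' deposited table of 31 distinct lipid genes, whose Flag column equals Flag-IP 2 for all 31 genes. In the authors' deposited table the ratios of Flag to IgG, not scaled for depth, are 3 for Mvk, 5 for Pmvk, 2.75 for Insig1 and 2.76 for Abcg1, and Lcat carries 999 in place of a division by 0. The smallest ratio on that list is 1.75. The same division with Flag-IP 2 gives 0.591 for Fdft1, 1.43 for Lss and 0.957 for Abca1, which are not listed. With Flag-IP 1, which the list does not use, it gives 2.25 for Mvk, 6.50 for Pmvk, 0.500 for Insig1 and 2.90 for Abcg1. Both sets of ratios share the IgG-IP library and are not independent. Among all tested genes with counts in IgG-IP, 18.5% had a Flag-IP 2 ratio of 1.75 or more. Among tested genes of the sterol lists with counts in IgG-IP it was 18 of 68 (26.5%). Of these 18, 8 are on the authors' list, where no ratio is below 1.75. Off that list it was 10 of 60 (16.7%). Leaving out listed genes can only lower this share, so it cannot be compared with the share over all genes.

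Across the sterol pathway at large, 74 genes in 7 lists were examined and 69 tested. The lists were written with earlier results of these data known. Abcg1, Abcg5, Rxra and Lrp1 were called higher and Cd36 lower, which is 4 of 69 higher against the background of 5.58% and 1 of 69 lower against 5.77%. The median log2 fold change was 0.40, and 0.13 over the 60 tested genes that are not on the authors' list. Listed genes have ratios of 1.75 or more in these libraries, so leaving them out lowers a median by the choice itself. Medians off that list are therefore descriptions and not checks. All 4 higher calls were lost with scaling to total counts, under which 9 genes of the lists were lower.

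Cholesterol synthesis as a whole gave no called gene. In the mevalonate list 0 of 8 tested genes were called and the median log2 fold change was 0.46. Over the 5 that are not on the authors' list it was -0.13, a value lowered by leaving out the listed genes. From squalene to cholesterol 0 of 11 tested genes were called, with a median of -0.53. In both synthesis lists together 5 of 19 tested genes had an unadjusted edgeR p under 0.05, of which 3 had log2 fold changes below 0, against 24.7% of all tested genes with such a p, so the share is near the background.

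The sterol-sensing list had 0 of 13 called and a median of 0.19. Erlin1, a membrane protein of the endoplasmic reticulum, had 24, 8 and 40 counts (-1.17 on the log2 scale, not called). Insig2, the close relative of Insig1, had 8, 24 and 32 counts (-0.88, not called), with Flag-IP 2 nearer to IgG-IP than Flag-IP 1. Mylip, a ubiquitin ligase, had 20265, 18914 and 15992 counts, far more than any other gene of the lists, at a log2 fold change of 0.43 that was not called. Overlapping genes were looked for only at the 8 genes described, so the source of the Mylip counts was not examined.

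Export genes had a median log2 fold change of 1.10 (the same with Lcat at its bound). Of 10 tested genes 2 were called higher, against 5.58% of all tested genes. Median transcript GC was 55.8% in the export and oxysterol lists, 46.2% from squalene to cholesterol and 48.9% over all tested genes. Protein-coding genes within 1 percentage point of the GC of Lcat (55.5%) had a median log2 fold change of 0.55. The part of GC content in the list medians was not tested. The median log2 fold change was 0.62 over the 6 export genes averaging 20 or more counts. It was 0.65 over the 8 that are not on the authors' list, again lowered by leaving out the listed genes. Beside Abcg1 the called gene was Abcg5, a sterol transporter that works with Abcg8. Abcg5 had 25, 45 and 12 counts (log2 fold change 1.66 ± 0.56, SE, edgeR adjusted p = 0.0321). Its partner Abcg8 had 15, 27 and 24 counts and a log2 fold change of -0.07. The log2 fold change of Abcg5 was 1.24 with Flag-IP 1 alone and 1.97 with Flag-IP 2 alone, and its call was lost without the filter on low counts (adjusted p = 0.0638). Pltp, which transfers phospholipid to high-density lipoprotein, had 31, 21 and 16 counts (0.83, not called).

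Among oxysterol receptors and enzymes 1 of 8 tested genes was called and the median was 1.02, or 0.73 over the 6 averaging 20 or more counts. Rxra, the partner receptor of LXR, had 81, 116 and 51 counts (1.07 ± 0.33, SE; edgeR adjusted p = 0.0157). Cyp46a1, which makes 24-hydroxycholesterol, had 27, 33 and 16 counts (1.03, not called), and Hsd3b7 of bile acid synthesis had 25, 27 and 14 (1.02, not called). In lipoprotein uptake, Lrp1, a large endocytic receptor, was higher with 111, 120 and 53 counts (1.25 ± 0.31, SE; edgeR adjusted p = 0.00211). Cd36, a scavenger receptor, was lower with 75, 72 and 150 (-0.89 ± 0.28, SE; edgeR adjusted p = 0.0183). In sterol transport and storage 0 of 13 were called, with a median of -0.02. Among its genes averaging 20 or more counts, the values farthest from 0 were those of the lipases Lipe (52, 35 and 23 counts; 1.06) and Lipa (21, 19 and 41; -0.90) and the sterol carrier Gramd1a (36, 32 and 26; 0.52).

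**Figure D3:**
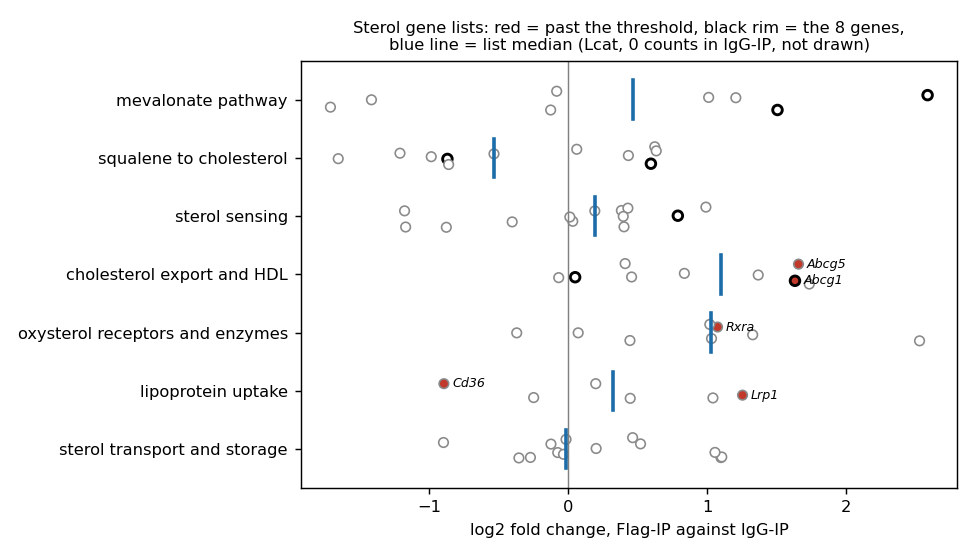
Log2 fold change of each tested gene in the 7 sterol lists, 1 circle per gene (vertical scatter has no meaning), filled red where the edgeR adjusted p is under 0.05 and black-rimmed for the genes described. The blue list medians run from -0.53 (squalene to cholesterol) to 1.10 (export), and Lcat is left out of the circles.

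Base composition moved with the comparison. Over 9084 protein-coding genes averaging 20 or more counts, which share the 3 libraries and do not replicate one another, Spearman's rho between transcript GC content and log2 fold change was 0.64. Mvk (59.6% GC) and Pmvk (57.0%) were the most GC-rich of the 8 genes, and Abca1 (47.5%) and Insig1 (48.2%) the least. The median log2 fold change of protein-coding genes within 1 percentage point of GC was 0.77 around Mvk, 0.64 around Pmvk, 0.30 around Abcg1, 0.26 around Fdft1 and -0.12 around Abca1. With a trend on GC removed, the log2 fold change was 0.70 for Mvk, 1.94 for Pmvk, -1.11 for Fdft1, 0.31 for Lss, 0.85 for Insig1, 0.17 for Abca1 and 1.31 for Abcg1, as values without a test. The value of Mvk fell by 0.81 on the log2 scale, that of Abcg1 by 0.33, and Fdft1 moved further below 0. Among the called genes of the lists, the 4 higher genes had 51.0% to 57.9% GC and Cd36, the lower gene, 38.4%. Abcg5 (51.0%) and Abcg1 (52.7%) had log2 fold changes of 1.66 and 1.63, and Rxra (57.0%) and Lrp1 (57.9%) had 1.07 and 1.25. These genes were picked by the threshold in the same data, so their values are descriptions only. The part of base composition in these results was not tested.

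**Figure D4:**
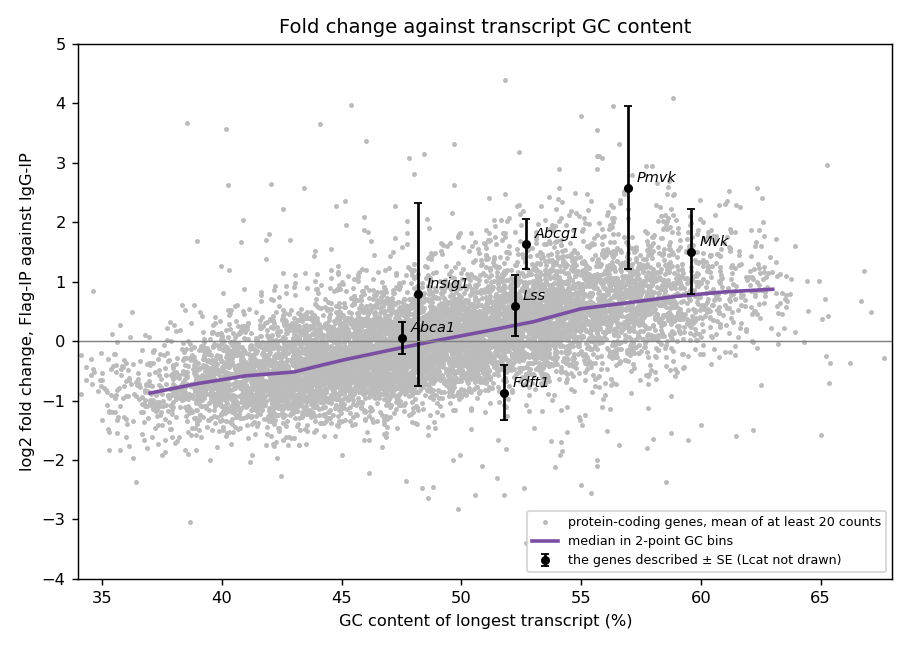
Log2 fold change against the GC content of the longest coding transcript, with a grey point for each protein-coding gene averaging 20 or more counts, their median in bins of 2 percentage points as a line, and the genes described as black points with SE (Lcat is not drawn, and a few genes lie outside the axes). The line rises from below 0 to above 0, and Abcg1 lies above it and Fdft1 below it.

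The counts of these genes also followed the length of the locus. Over 19021 protein-coding genes with a span of at least 3 kb, Spearman's rho between normalized count and gene span was 0.85, 0.86 and 0.89 in the 3 libraries, and 0.45, 0.45 and 0.44 for transcript length, so levels are compared per kilobase of span. On that scale the median protein-coding gene had 0.789, 0.802 and 0.765 normalized counts per kb, with quartiles of 0.491 and 1.02 in IgG-IP. Abca1, with 129109 bases the longest of the 8, was near the median in each library at 0.901, 0.851 and 0.846. Abcg1 had 1.09 and 0.952 per kb in Flag-IP, inside the quartiles of those libraries (0.512 to 1.16 and 0.530 to 1.14), and 0.328 in IgG-IP, below the lower quartile there. Pmvk showed the same arrangement, with 0.967, 0.684 and 0.130. Mvk had 1.19 and 1.46 in Flag-IP, above the upper quartiles, and 0.462 in IgG-IP, just under the lower one. Fdft1 was inside the quartiles in Flag-IP (0.563 and 0.748) and above the upper quartile in IgG-IP (1.20). Lss had 1.18, 1.16 and 0.774. Lcat had the highest density in Flag-IP 1, 4.22, and 1.29 in Flag-IP 2, and the densities of Insig1 were 0.295, 1.49 and 0.516. Per kilobase of transcript the order was another: in Flag-IP 1 the range was 0.799 (Insig1) to 12.0 (Lcat), with Abca1 at 11.3 and Abcg1 at 11.3.

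**Figure D5:**
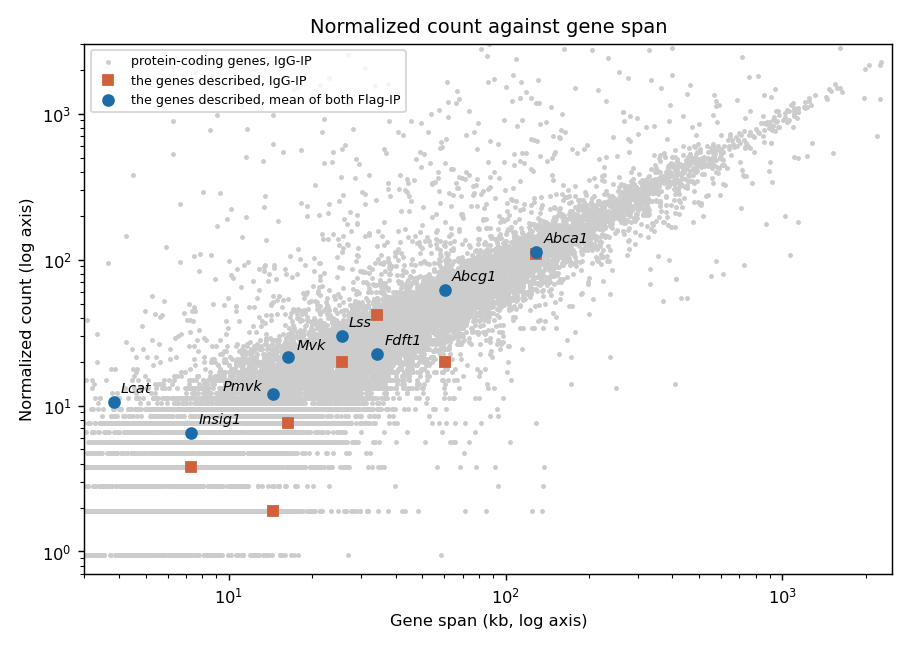
Normalized count against gene span (both log axes), with a grey point for each protein-coding gene in IgG-IP (a few lie outside the axes), squares for the genes described in IgG-IP and circles for the mean of both Flag-IP libraries. The grey points rise with span, Abca1 has the longest span and the highest counts of the genes described, and the Abcg1 square lies at the lower edge of genes of its length.

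Likeness of pattern was measured as the Euclidean distance between log2 CPM values centred over the 3 libraries, among list genes averaging 20 or more counts. The nearest to Abcg1 were Lrp1 (distance 0.290) and Hsd3b7 (0.520), to Abca1 the protease gene Mbtps2 (0.0545) and Osbp (0.129), to Lss Mbtps1 (0.140) and Scarb1 (0.145), and to Fdft1 Lbr (0.302) and Cd36 (0.391). With only 3 libraries such likeness is common: 210 of 10249 genes lay as near to Abcg1 as Lrp1 did.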

How the data were processed

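RNA from 3 immunoprecipitations was sequenced. The authors deposited raw counts per Ensembl gene, and a lipid gene list with 2 counts per gene (Flag and IgG) and their unscaled ratio (fold). Per the submitters' processing notes, CASAVA 1.7, Bowtie 0.12.2 and build mm8 are named; how reads were counted per gene (program, annotation, strand) is not given in the sources used here. For each library, its description names its column number.

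Counts were filtered with edgeR's filterByExpr (minimum count 10, 17587 genes left), scaled by TMM (factors 0.840, 0.936 and 1.27) and tested for Flag-IP against IgG-IP by the quasi-likelihood F test of edgeR 4.0.16 in R 4.3.3, adjusted by Benjamini-Hochberg over all tested genes (threshold 0.05). There is 1 residual degree of freedom, from the Flag-IP pair, and 0 genes had finite prior degrees of freedom, so p-values and standard errors (log2 fold change over the square root of F) rest on a spread shared between genes (common dispersion 0.0359), and the lone IgG-IP library is assumed to vary alike. Single-library log2 ratios used a prior count of 2. Bounds set an IgG-IP count of 0 to a floor of 3, and intervals are exact binomial (Clopper-Pearson, 95%). Both cover counting error only, and the bounds cover that of IgG-IP alone. Code was tested on simulated data in which only genes averaging 50 or more counts were changed, so that test does not cover low counts.

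Positions, spans and transcript GC come from GENCODE M21 (GRCm38), matched by Ensembl identifier (37607 of 39179), never from mm8. GC is that of the longest coding transcript, and trends were lowess fits (fraction 0.5, statsmodels 0.14.6) over protein-coding genes averaging 20 or more counts. Alternatives were scaling by RLE, upper quartile or total counts, no filter or a filter at a mean of 50, DESeq2 1.42.0, other prior counts, GC and length trends, and leaving out each Flag-IP library. Members, lists and tests were chosen with earlier results of these data known. Named genes are the 8 members, any list gene past the threshold, the 3 of each list with the largest absolute log2 fold change at an average of 20 or more counts, the 2 nearest in pattern to each such member, and overlapping genes. Some genes this rule takes are not reported here.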

Additional observations from a re-analysis of the deposited data

How the results depend on the processing

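No paired analysis was possible because the groups share only replicate number 1. With scaling to total counts, which shifted the log2 fold changes of all genes by -0.52 at the median, 0 of the 8 genes were higher and 1 was lower, 0 sterol-list genes were higher and 9 lower, and 342 of all genes were higher and 3008 lower. Under that scaling the log2 fold change was -1.38 for Fdft1, 1.11 for Abcg1 and -0.47 for Abca1. Without the filter 2 of the 8 were higher (Abcg1 and Lcat, whose fitted 6.38 is no bound), and Abca1 was at -0.0073. Under a mean of at least 50 counts only Abca1 was tested and 0 were called. DESeq2 called 131 genes higher and 145 lower, with no adjusted p for 15684 genes, for 67 of 69 sterol-list genes or for any of the 8, so no count is given for them. With the GC trend removed Mvk was at 0.70, Pmvk at 1.94, Lss at 0.31, Abca1 at 0.17 and Abcg1 at 1.31, and with the length trend Abca1 was at 0.21. Leaving out a Flag-IP library leaves no test. The fitted log2 fold change then ran from -0.77 to 1.50 for Insig1 and from 5.39 to 7.02 for Lcat. RLE and upper-quartile scaling changed no call among the 8. The cause of these changes was not tested. Depth limits the 4 genes with a mean under 20 counts (Mvk, Pmvk, Insig1 and Lcat).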

Other observations

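Some sterol-list genes had normalized counts that differed 2-fold or more from Flag-IP 1 to Flag-IP 2. Beside Insig1, Insig2, Apoe, Rxrg and Lcat, these were Sqle, Erlin2 and Erlin1. The squalene epoxidase gene Sqle had 8, 32 and 14 counts and Erlin2 had 8, 31 and 16, so that Flag-IP 1 lay below IgG-IP and Flag-IP 2 above it, while Erlin1 had 24, 8 and 40. These genes were named after their values were seen. Of 69 tested sterol-list genes 8 were at least 2-fold apart between Flag-IP 1 and Flag-IP 2, of which 4 were lower in Flag-IP 1, against 12.5% of all tested genes apart, so the share is near the background. Among genes too weakly counted to test, the apolipoprotein gene Apoa1 had 0, 8 and 0 counts, and the oxysterol synthase gene Ch25h had 0 counts in all libraries.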
